A study of Mus musculus with 4 samples.

Results

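The interferon regulatory factors (IRFs) are a family of transcription factors that share a DNA-binding domain and turn on interferon genes, interferon-stimulated genes and programmes of immune cell identity. The genes described here are Irf1, Irf2, Irf3, Irf4, Irf5, Irf7, Irf8 and Irf9, 8 of the 34745 Ensembl gene IDs in the count table, found by matching each ID to its symbol. Transcripts were counted in mouse macrophages grown from the bone marrow of C57BL/6 animals, as 4 libraries. In 2 of them the cells had been transfected with Acly-E14 siRNA, and in the other 2 with control siRNA. Every library came from cells that were also given lipopolysaccharide (LPS), the bacterial cell wall component that activates macrophages, so no library shows the family without LPS. Acly, the targeted gene, encodes ATP citrate lyase, which makes acetyl-CoA in the cytosol. The labels do not spell out E14, the LPS dose or the times, and they do not say whether replicates are separate animals or separate cultures.

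In a macrophage that meets LPS, the receptor TLR4 signals through the adaptor TRIF to the kinase TBK1, which activates IRF3. It also signals through the adaptor MyD88, which engages IRF5. IRF3 starts transcription of the interferon-beta gene. The interferon that is made acts back on the cells through its receptor and the DNA-binding complex ISGF3, which contains IRF9 and raises Irf7 and many antiviral genes. IRF1 and IRF2 recognise the same DNA element, IRF1 as an activator and IRF2 as its antagonist. IRF4 and IRF8 are made mainly in blood cells and bind DNA together with the factor PU.1.

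The libraries held 21023197 to 21837806 counts. Levels are given as CPM, counts scaled to a common library size. Acly itself had 118 and 127 CPM with Acly-E14 siRNA and 158 and 154 CPM with control siRNA, a log2 fold change of -0.35 (SE 0.060, edgeR adjusted p = 0.0086, and 0.058 without control library 1). Markers of fibroblasts and stroma separated the groups. Of 15 tested, 13 were higher and 2 not called, each had counts in the table, and their summed level was 2977 and 3729 CPM in Acly-E14 siRNA libraries against 883 and 1358 CPM in controls. Of 20 macrophage identity genes, 18 were tested, with 7 higher and 8 lower (4 and 5 without Acly-E14 siRNA library 2, 3 and 4 without control library 1, and 5 and 4 without control library 2; 5 were lower with unscaled library totals, with no filter on low counts and in the limma fit). Their summed level was 13002 and 13649 CPM against 12840 and 12201 CPM. Cd163 and Cx3cr1, macrophage markers of some tissues, had at most 2 counts in any library. What part the stromal markers play in the results below was not tested, and in bulk RNA fewer cells of a type cannot be told apart from less RNA per cell.

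Of the 8 IRF genes, 1 rose, 4 fell and 3 were not called in Acly-E14 siRNA libraries. Irf4 rose, and Irf9, Irf2, Irf8 and Irf1 fell. Irf3, Irf5 and Irf7, whose proteins respond directly to receptor signals, did not pass the threshold, an edgeR adjusted p under 0.05. All 8 passed the filter on low counts, and the member with the fewest reads, Irf4, had 361 counts in its lowest library. Among all 13108 genes tested, 33.2% were called, 17.3% higher and 15.9% lower. Among the 5529 genes at least as abundant as the least abundant member, 45.6% were called, 16.9% higher and 28.7% lower, so calls were common among genes as abundant as these, and no test here sets the 5 calls among the 8 members apart from them.

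**Figure D1:**
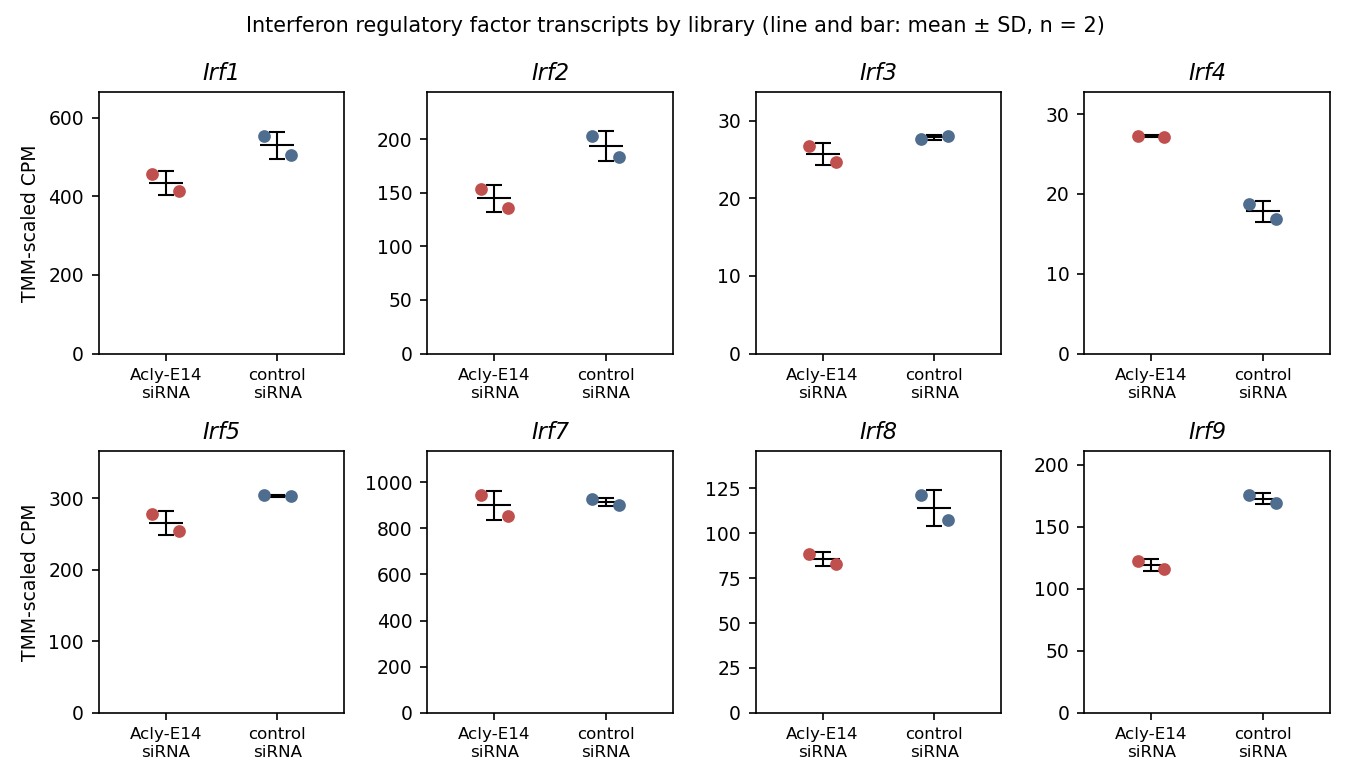
TMM-scaled CPM of the 8 IRF genes in each library, with Acly-E14 siRNA at the left and control siRNA at the right of each panel; points are libraries, and the line and bar are the mean ± SD of 2. Irf4 is at 27.3 and 27.2 CPM in Acly-E14 siRNA libraries and at 18.7 and 16.9 CPM in controls, while the Irf7 points of the groups overlap.

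Irf4 lies on the plus strand of chromosome 13 from 30749226 to 30766976 (mm10, GENCODE M21). Its protein is best known in B and plasma cells, and in macrophages it is linked to alternative activation and competes with IRF5 for MyD88. It had 597 and 595 counts in Acly-E14 siRNA libraries and 377 and 361 in controls. After scaling these are 27.3 and 27.2 CPM, against 18.7 and 16.9 CPM in controls. Both Acly-E14 siRNA libraries were above both controls. The groups were apart in this way, in one direction or the other, for 70.6% of all tested genes. This held for 7 of the 8 members, also for Irf3 and Irf5, which were not called. The means were 27.2 ± 0.0993 and 17.8 ± 1.3 CPM (SD, n = 2 each), a 1.53-fold rise (log2 0.61, SE 0.094, edgeR adjusted p = 0.0064). Irf4 was called under all 11 alternatives tried, with log2 fold changes between 0.54 and 0.71.

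Lymphoid and dendritic cells also make IRF4, and the levels of their markers follow; their part in the Irf4 rise was not tested. The B cell genes Cd79a and Ms4a1 had at most 1 count in any library, and of 4 tested genes of the 9 in the B cell list 1, Blnk, was lower and 3 were not called. The whole B cell list summed to 207 and 205 CPM in Acly-E14 siRNA libraries and 279 and 267 CPM in controls. Most of it was Blnk (150 and 139 against 214 and 204 CPM) and Cd22 (54.1 and 58.8 against 60.2 and 57.4 CPM). Pax5 had 49 and 101 counts in Acly-E14 siRNA libraries and 72 and 45 in controls. In the plasma cell list Tnfrsf17 and Mzb1 were at 0. Of 3 tested genes Xbp1 was higher (74.7 and 79.3 CPM in Acly-E14 siRNA libraries against 60.0 and 64.5 CPM in controls) and Sdc1 lower. Sums over the list were 434 and 535 against 693 and 738 CPM, most of it Sdc1 (306 and 413 against 575 and 624 CPM). The Xbp1 call was lost without Acly-E14 siRNA library 2 or control library 1, and the Sdc1 call without control library 1 or 2. The conventional dendritic cell list summed to 8.42 and 9.18 CPM against 7.25 and 10.9 CPM, and edgeR called 0 of its 3 tested genes, as did DESeq2 and limma, with 0 at an unadjusted p under 0.05. T and NK cell genes summed to 20.2 and 23.2 CPM against 18.5 and 21.4 CPM, mostly Lck, with Cd3e, Cd8a, Ncr1 and Gzma at 0.

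Irf8, the factor that supports monocyte and dendritic cell fate, moved the other way. It lies on the plus strand of chromosome 8 from 120736358 to 120756694. Its level was 88.6 and 82.8 CPM in Acly-E14 siRNA libraries, against 121 and 107 CPM in controls. The groups did not overlap, but the controls were further apart from each other than the Acly-E14 siRNA libraries were. Irf8 fell to 85.7 ± 4.12 CPM in Acly-E14 siRNA libraries, against 114 ± 10.1 CPM in controls (SD, n = 2 each, log2 -0.41, SE 0.080, edgeR adjusted p = 0.013). The call was lost without Acly-E14 siRNA library 2 (adjusted p = 0.071) and without control library 1 (0.064). The plasmacytoid dendritic cell list, whose cells are rich in IRF8, had 2 of 4 tested genes lower and 2 not called (1 lower without Acly-E14 siRNA library 1, with no filter on low counts or in the limma fit, and 0 without Acly-E14 siRNA library 2 or control library 1), with Siglech at 0 and sums of 549 and 534 against 623 and 590 CPM, most of it Bst2.

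Because both genes are counted in one library, the ratio of their counts does not depend on how libraries are scaled. The Irf8 count was 3.24 and 3.05 times the Irf4 count in Acly-E14 siRNA libraries, against 6.48 and 6.34 times in controls. The ratio was thus 0.491 of its control value. This pair and the pairs below were picked with the values known, and with 2 libraries against 2 the smallest two-sided p of an exact permutation test is 0.333; the ratios are therefore given without a test.

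**Figure D2:**
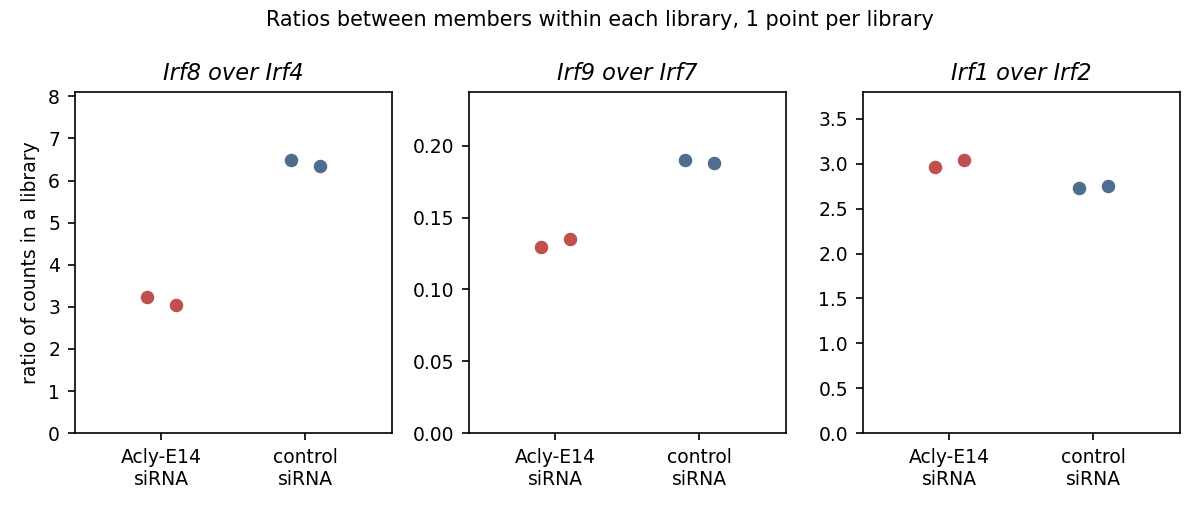
Ratio of counts between 2 IRF genes within each library, 1 point per library, with Acly-E14 siRNA at the left of each panel and control siRNA at the right; axes start at 0. The Irf8 over Irf4 ratio is 3.24 and 3.05 in Acly-E14 siRNA libraries and 6.48 and 6.34 in controls, while Irf1 over Irf2 is between 2.73 and 3.04 in all 4.

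Irf9 had the largest fall of the 8 on the log2 scale and the smallest p. It encodes the DNA-binding subunit of ISGF3 and lies on the plus strand of chromosome 14 from 55603571 to 55610030. Irf9 was at 122 and 116 CPM in Acly-E14 siRNA libraries and at 176 and 169 CPM in controls. The libraries of each group were close together and the groups were apart. The fall was to 119 ± 4.87 CPM in Acly-E14 siRNA libraries, against 172 ± 4.51 CPM in controls (SD, n = 2 each, log2 -0.54, SE 0.059, edgeR adjusted p = 0.0026). Irf9 was called lower under all 11 alternatives, again counting the looser threshold that could not undo a call. Its log2 fold changes were between -0.58 and -0.42. Irf9 shares 123 exon bases with Rnf31 on the same strand, which itself fell less (log2 -0.25, edgeR adjusted p = 0.026).

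Irf7 encodes the factor that amplifies interferon-alpha production and is itself a target of ISGF3. Its position is chromosome 7, 141262706 to 141266481, minus strand. Irf7 was at 945 and 854 CPM in Acly-E14 siRNA libraries and at 925 and 901 CPM in controls, so the groups overlapped. The log2 fold change was -0.02 (SE 0.067, edgeR adjusted p = 0.83), and its sign turned with unscaled library totals (0.070) and in the limma fit of log2(FPKM + 1) (0.068). The Irf9 count was 0.130 and 0.135 times the Irf7 count in Acly-E14 siRNA libraries, against 0.190 and 0.188 times in controls. Irf7 shares 45 exon bases with Phrf1 on the opposite strand.

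Irf1 and Irf2, activator and antagonist at one element, both fell. Irf1 (chromosome 11, 53770014 to 53778374, plus strand) was at 456 and 412 CPM in Acly-E14 siRNA libraries and at 554 and 506 CPM in controls. Its log2 fold change was -0.29 (SE 0.075, edgeR adjusted p = 0.033). Irf2 (chromosome 8, 46739732 to 46847458, plus strand) was at 154 and 136 CPM in Acly-E14 siRNA libraries and at 203 and 184 CPM in controls. Its log2 fold change was -0.42 (SE 0.085, edgeR adjusted p = 0.014). Neither gene's groups overlapped, as was so for 70.6% of all tested genes, and in both groups the libraries differed more than those of Irf9 did. The SD of Irf1 was 30.7 CPM in Acly-E14 siRNA libraries and 34.4 CPM in controls, and that of Irf2 was 12.8 and 13.9 CPM.

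The calls of these 2 genes were lost in some settings, though both stayed lower in all of them. Log2 fold changes lay between -0.36 and -0.19 for Irf1 and between -0.51 and -0.32 for Irf2. With a library left out, fewer genes were called over the whole table as well. The Irf1 call was lost without Acly-E14 siRNA library 2 (edgeR adjusted p = 0.14), without control library 1 (0.16) or 2 (0.052), with unscaled library totals (0.066), with no filter on low counts (0.062) and in the limma fit of log2(FPKM + 1) (0.074). The Irf2 call was lost without Acly-E14 siRNA library 2 (0.063) and without control library 1 (0.085). The ratio of Irf1 to Irf2 counts was 2.96 and 3.04 in Acly-E14 siRNA libraries and 2.73 and 2.75 in controls, 1.10 times as high. Irf1 shares 135 exon bases with Gm17334 on the opposite strand.

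Irf3 and Irf5 were slightly lower without passing the threshold. Irf3, on the plus strand of chromosome 7 from 44997648 to 45002848, was at 26.8 and 24.7 CPM in Acly-E14 siRNA libraries, against 27.7 and 28.1 CPM in controls (log2 -0.12, SE 0.087, edgeR adjusted p = 0.35). Irf5, on the plus strand of chromosome 6 from 29526625 to 29541871, was at 278 and 254 CPM in Acly-E14 siRNA libraries, against 305 and 303 CPM in controls (log2 -0.19, SE 0.062, edgeR adjusted p = 0.060). Irf5 passed with the DESeq2 Wald test (adjusted p = 0.0095). Its exons share 411 bases with Tnpo3 on the opposite strand, which was also lower (log2 -0.21, edgeR adjusted p = 0.035), and those of Irf3 share 88 bases with Bcl2l12. How the reads of overlapping exons were assigned is not given in the sources used here.

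**Figure D3:**
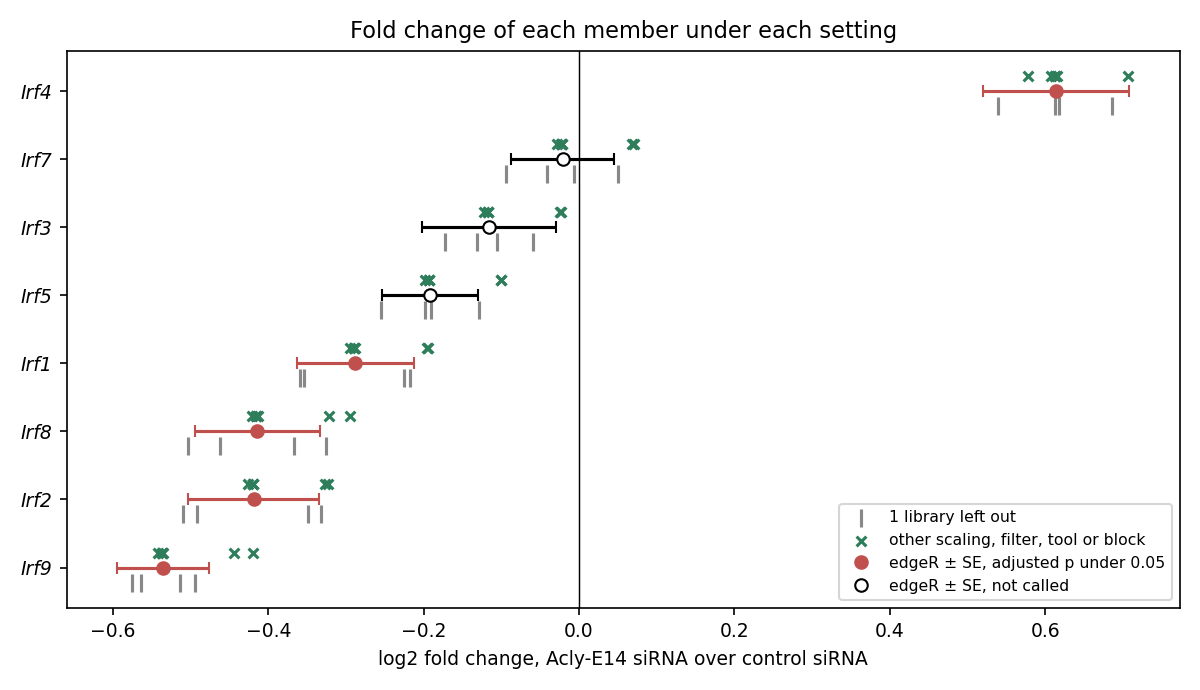
Log2 fold change (Acly-E14 siRNA over control siRNA) of each IRF gene: circles are the edgeR value ± SE, grey ticks the value with 1 of the 4 libraries left out, green crosses other scalings, filters, tools or the replicate block. Irf4 stays between 0.54 and 0.71 and Irf9 between -0.58 and -0.42, while Irf7 lies on both sides of 0.

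The levels of the 8 genes differ widely, and only values per length can be set side by side. In FPKM with the gene lengths of the deposited table, which divide each count by gene length and library total, Irf7 was highest in both groups, with means of 144 in Acly-E14 siRNA libraries and 138 in controls, and Irf4 was lowest with 5.79 and 3.55. Irf1 and Irf5 could not be ordered in Acly-E14 siRNA libraries, where Irf1 was at 81.0 and 74.3 FPKM and Irf5 at 80.2 and 74.4 FPKM. Irf2 followed with means of 60.1 FPKM in Acly-E14 siRNA libraries and 75.4 FPKM in controls, and Irf9 with 14.3 and 19.4. Irf8 averaged 10.2 FPKM in Acly-E14 siRNA libraries and 12.8 FPKM in controls, and Irf3 averaged 11.2 and 11.4 FPKM. In FPKM the order of these neighbours thus differed between the groups.

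Part of this order depended on the gene length used. The deposited FPKM columns imply a length of 2484 bases for Irf2, whose merged exons in GENCODE M21 cover 7396 bases, and of 8582 bases for Irf9, whose merged exons cover 5386. In CPM per kilobase of merged exons, Irf2 was at 19.6 in Acly-E14 siRNA libraries and 26.2 in controls, below Irf9 at 22.1 and 32.0. On this scale Irf8 was above Irf3 in both groups. Irf8 was at 12.1 in Acly-E14 siRNA libraries and 16.2 in controls, and Irf3 at 7.48 and 8.10. On both scales Irf7 was highest, Irf1 and Irf5 came next and Irf4 was lowest. Irf1 and Irf5, not ordered in FPKM in Acly-E14 siRNA libraries, were apart there per kilobase. Irf1 was at 115 and 104 and Irf5 at 95.6 and 87.5.

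**Figure D4:**
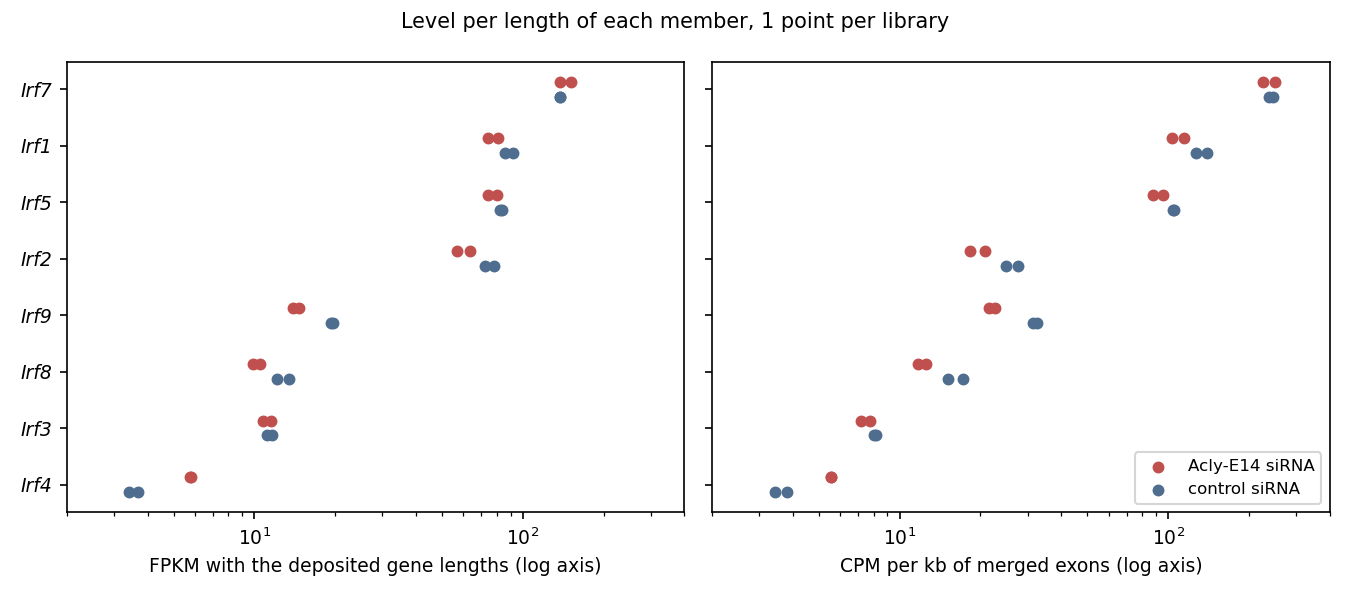
Level per length of each IRF gene on log axes, 1 point per library, as FPKM with the deposited gene lengths at the left and as CPM per kilobase of merged exons at the right; Acly-E14 siRNA points are red and above the blue control points. Irf7 is highest and Irf4 lowest on both, while Irf2 is above Irf9 at the left and below it at the right.

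A motif of interferon signalling was found in the promoters of 3 of the 8 genes. These 3 were among those that fell, but none of the motifs searched was found for Irf9, which had the largest fall. A link between motif and direction was not tested. RefSeq promoters (build GRCm38.p6, 250 bases before to 50 after a gene's start) matched all 8 genes, with 11 promoters. They were searched on both strands for TTCNNNGAA, the core of the gamma-activated sequence of interferon signalling and the same on either strand, for the core of the interferon-stimulated response element (ISRE), a pair of GAAA blocks with 2 bases of any kind between them that IRF proteins and ISGF3 bind, and for the NF-kB site of the kappa light chain enhancer. The first was found in Irf1, Irf2 and Irf8 and in 8.30% of all 32851 promoters, the second in Irf2 and in 3.44% of all, and the third in none of the 11 and in 0.155% of all. The stretches that hold them are shown 5′ to 3′ on the gene's strand, with the motifs in capitals, since these are the members whose windows hold an interferon motif.
Irf1, chr11:53769909-53769947: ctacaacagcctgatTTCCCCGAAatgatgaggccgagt
Irf2, chr8:46739495-46739544: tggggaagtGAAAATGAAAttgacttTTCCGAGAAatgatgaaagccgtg
Irf8, chr8:120736172-120736228: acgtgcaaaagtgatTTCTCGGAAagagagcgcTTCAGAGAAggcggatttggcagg
The Irf1 match starts 90 bases before the gene's start, and the Irf8 matches start 171 and 153 bases before it. In Irf2 the ISRE match starts 241 and the TTCNNNGAA match 224 bases before the start, without overlap. These distances are counted from the RefSeq start, which for Irf2 lies downstream of the GENCODE M21 start given above. A match describes the letters and does not show binding, and the windows of Irf4, Irf9 and the others say nothing of elements outside them.

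Genes that act before the IRF proteins come next. Of 21 adaptors, sensors and kinases, 1 rose, 6 fell and 14 were not called, 7 calls in all beside 33.2% over all genes, with a median log2 fold change of -0.11, beside 0.00 over all genes tested. Tank, a scaffold of TBK1, fell to 163 ± 4.22 CPM in Acly-E14 siRNA libraries, against 228 ± 7.79 CPM in controls (SD, n = 2 each, log2 -0.48). Ticam2, the adaptor that links TLR4 to TRIF, had a log2 fold change of -0.83, and Tmem173, which encodes the DNA-sensing adaptor STING, rose 1.48-fold. Ticam2 shares 838 exon bases with Tmed7 on the same strand, so its count is less certain.

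Partners and corepressors of the IRF proteins moved in both directions, as did all genes tested, of which 17.3% were called higher and 15.9% lower. Of 16, 3 rose and 3 fell, with a median of 0.01 (1 rose when one or the other Acly-E14 siRNA library was removed; 1 fell without Acly-E14 siRNA library 1, 0 without Acly-E14 siRNA library 2 or control library 1, and 1 in the limma fit; 5 fell with DESeq2 and at an adjusted p under 0.1). Irf2bp2, a corepressor recruited by IRF2, was at 29.3 and 33.1 CPM in Acly-E14 siRNA libraries and at 13.8 and 17.4 CPM in controls, a 2.0-fold rise (edgeR adjusted p = 0.0045). Its exons share 1039 bases with Gm26759 on the opposite strand. Batf, which pairs with IRF4 and IRF8 on DNA, rose 1.28-fold, but did not pass without Acly-E14 siRNA library 1 (adjusted p = 0.061) or 2 (0.059) or control library 1 (0.059). Spib, a relative of PU.1, was at 1.53 ± 0.228 CPM in Acly-E14 siRNA libraries and 0.340 ± 0.151 CPM in controls (SD, n = 2 each, log2 2.16), a call lost without Acly-E14 siRNA library 1 (0.073) or 2 (0.053) or control library 2 (0.054).

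Interferon genes themselves were barely detected. Of 20, 14 had no count in any library, and Ifnb1, the interferon-beta gene, alone passed the filter, at 3.39 and 2.65 CPM in Acly-E14 siRNA libraries and 5.36 and 4.68 CPM in controls (log2 -0.73, edgeR adjusted p = 0.043). It did not pass when any of the 4 libraries was removed (adjusted p from 0.071 to 0.21), with unscaled library totals (0.064) or with no filter on low counts (0.062). Of 7 tested interferon receptor and JAK kinase genes, 2 fell and 1 rose (median 0.01), beside 15.9% lower and 17.3% higher over all genes tested. The kinase gene Tyk2 fell to 145 ± 7.94 CPM in Acly-E14 siRNA libraries, against 213 ± 2.09 CPM in controls (SD, n = 2 each, log2 -0.56), and shares 554 exon bases with 1700084C06Rik on the opposite strand. Jak1 (log2 -0.25) and the receptor gene Ifnar1 (log2 0.23) were called as well, and neither passed when any of the 4 libraries was removed (adjusted p from 0.050 to 0.14).

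The lists of target genes were chosen from textbook links, with earlier results of these data known, so their counts are no independent support. Some lists share genes, and they are described by counts and medians. Over all genes tested, 15.9% were called lower and 17.3% higher. Among the 5529 genes at least as abundant as the least abundant member, these shares were 28.7% and 16.9%. Of 36 targets of IRF9 in ISGF3, 27 fell and 1, Rsad2, rose, with a median of -0.34; without control library 1, 14 fell and 2 rose. Samd9l, an antiviral gene, fell to 1006 ± 31.8 CPM in Acly-E14 siRNA libraries, against 1572 ± 19.6 CPM in controls (SD, n = 2 each). Dhx58, an RNA sensor gene, had a log2 fold change of -0.59 and Rtp4 of -0.48, and both share exon bases with a neighbour (141 and 296). Rsad2, chosen for its direction after its values were seen, was at 14041 CPM in Acly-E14 siRNA libraries and 9769 CPM in controls. Of 10 LPS early genes linked to IRF3, 6 fell and 4 were not called, the median being -0.26 (3 fell without Acly-E14 siRNA library 2 or control library 1, and 1 rose without control library 2). Ifit2 (log2 -0.55), Ifit1 (log2 -0.48) and the ubiquitin ligase gene Peli1 (log2 -0.46) had the smallest p there.

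Among 20 tested targets linked to IRF1, 11 fell and 1 rose, with a median of -0.23. Over all genes tested, 15.9% were called lower and 17.3% higher. Fewer fell without Acly-E14 siRNA library 1 (6) or 2 (2), without control library 1 (2), with unscaled library totals (6) and in the limma fit of log2(FPKM + 1) (5), and 0 rose without Acly-E14 siRNA library 2, without either control library or without a filter on low counts. Il18bp, which encodes the inhibitor of interleukin-18, was at 112 and 112 CPM in Acly-E14 siRNA libraries and at 186 and 184 CPM in controls (log2 -0.72, edgeR adjusted p = 0.00098). Casp1 (log2 -0.45) and Cd274, which encodes the checkpoint ligand PD-L1 (log2 -0.37), fell too. The Cd274 call was lost without Acly-E14 siRNA library 2 (adjusted p = 0.062) or control library 1 (0.058), and its exons share 511 bases with AC119228.1 on the opposite strand.

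Genes linked to IRF5, IRF4 and IRF8 were split between the directions, as were calls over all genes tested (17.3% higher and 15.9% lower). Of 8 inflammatory cytokine genes linked to IRF5, 4 fell and 2 rose (median -0.35), and 3 rose without control library 2. Il23a (log2 -2.40) and Il6 (log2 -0.74) fell, and Il1b rose 2.20-fold. Of 9 tested genes of alternative activation linked to IRF4, 2 rose and 2 fell, with a median of -0.14 (1 rose without either Acly-E14 siRNA library or control library 1). The chemokine gene Ccl22 rose to 39.2 ± 2.47 CPM in Acly-E14 siRNA libraries, against 26.8 ± 2.10 CPM in controls (SD, n = 2 each), while the mannose receptor gene Mrc1 (log2 -0.63) and Klf4 (log2 -0.71) fell. Of 13 genes linked to IRF8, 5 fell and 2 rose, with a median of 0.09 (2 fell without Acly-E14 siRNA library 2 or control library 1 and 3 without control library 2; 3 fell and 4 rose with unscaled library totals, and 3 fell and 5 rose in the limma fit). Ctsc, a cathepsin gene, fell to 427 ± 6.47 CPM in Acly-E14 siRNA libraries, against 730 ± 4.80 CPM in controls (SD, n = 2 each), and Cst3, the gene of the cathepsin inhibitor cystatin C, rose 1.67-fold. Il12b, which is in the lists of both IRF5 and IRF8, rose 1.91-fold.

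**Figure D5:**
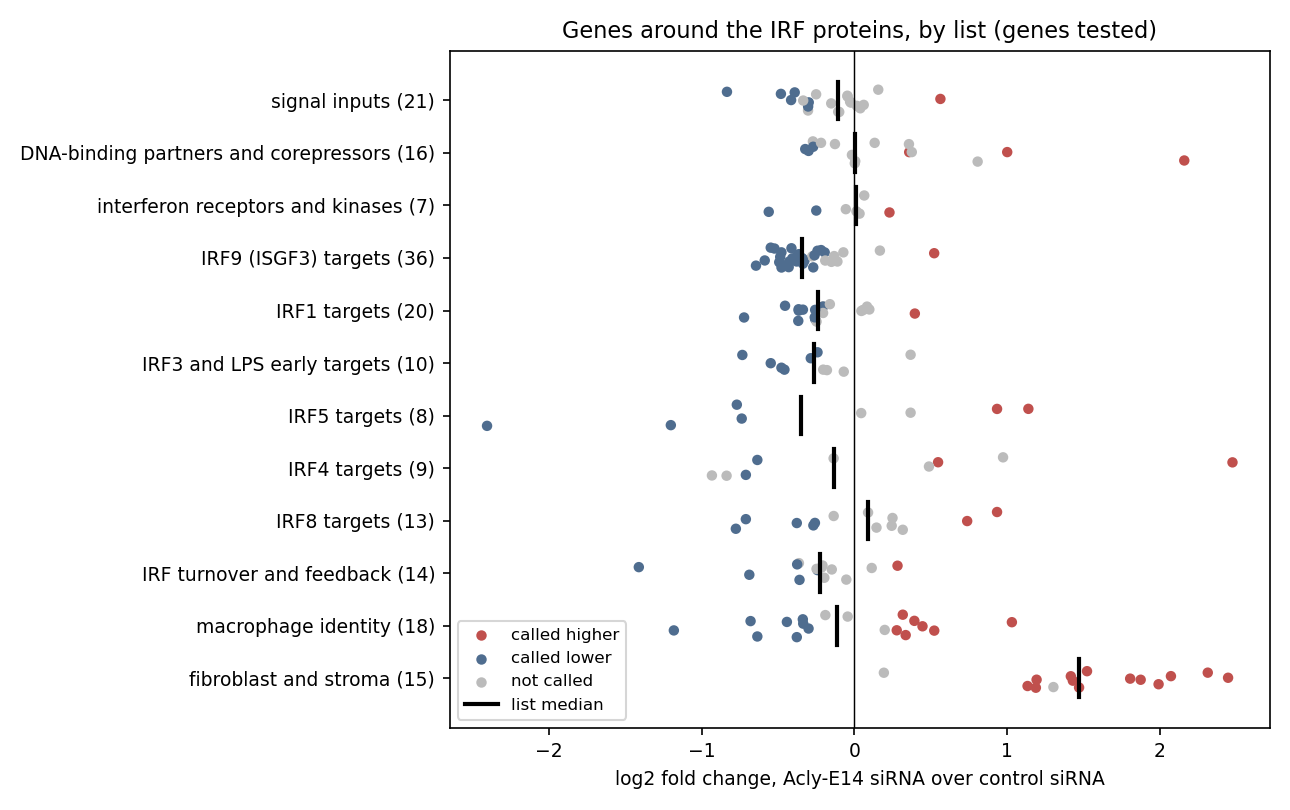
Log2 fold change (Acly-E14 siRNA over control siRNA) of each tested gene by list, with the number tested in brackets; red points were called higher, blue points lower and grey points not called, and the black bar is the list's median. The IRF9 targets lie mostly left of 0 with a median of -0.34, and the fibroblast and stroma markers right of it with a median of 1.47.

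Of 14 genes that limit IRF proteins or interferon signalling, 5 fell and 1 rose, with a median of -0.23 (2 fell without Acly-E14 siRNA library 2 and 3 without control library 1, and 0 rose without either of these or control library 2). Over all genes tested, 15.9% were called lower and 17.3% higher. Trim21 is a ubiquitin ligase gene whose product marks several IRF proteins for turnover. Its level was 134 and 125 CPM in Acly-E14 siRNA libraries and 355 and 333 CPM in controls. That is 0.376 of the control level (log2 -1.41, SE 0.065, edgeR adjusted p = 0.00058), and no IRF gene changed by as much. Usp18, which removes ISG15 and blocks the interferon receptor, had a log2 fold change of -0.37 and shares 124 exon bases with Gm44148 on the opposite strand. Socs3, a feedback inhibitor of JAK kinases, rose 1.22-fold, a call lost without Acly-E14 siRNA library 2 (adjusted p = 0.053) or control library 1 (0.074) or 2 (0.051).

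For Irf4 and Irf9, the genes nearest in pattern were found by the root mean square distance of centred log2 CPM over the 4 libraries. Nearest to Irf4 were Ndufaf6, the cyclin gene Ccnd2 and the mitotic checkpoint gene Bub1b, at distances of 0.014 to 0.020, and nearest to Irf9 were Themis2, Cldnd1 and Ahnak2, at 0.0065 to 0.0075. Many genes were about as close, with 287 genes within 0.1 of Irf4 and 929 within 0.1 of Irf9. Of the 3 nearest to Irf4, Ndufaf6 was itself not called (log2 0.64, edgeR adjusted p = 0.092).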

How the data were processed

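The authors deposited whole-number counts per Ensembl gene and FPKM values for 4 libraries, per the file headers. HISAT2, StringTie 1.3.0, edgeR and mouse build mm10 are named in the submitters' processing notes, without roles; how reads were counted, with or without strand, and against which annotation, is not stated there. The 1 value column not used is an FPKM column of the Acly-E14 siRNA group without a replicate number, so FPKM were recomputed from counts with the lengths the other FPKM columns imply; 49103 of 49103 deposited values were matched within a relative tolerance of 0.001.

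Counts were tested with edgeR 4.0.16 (R 4.3.3; filterByExpr with minimum count 10, TMM factors, quasi-likelihood F test, no covariates), adjusted by Benjamini-Hochberg over 13108 genes; SE values come from the F statistic. CPM are TMM-scaled. The test was checked on simulated data. Each library held at least 21023197 counts, and since replicates may be technical, p-values speak of the spread among these 4 libraries alone. Symbols matched 34267 IDs. The members and lists were chosen with earlier results of these data known. Named are the 8 members, Acly, the 3 genes of smallest p in each of 11 pathway lists (a gene once), and for members changed by at least 0.5 (log2) the 3 nearest genes. Alternatives were a replicate block, each library left out, RLE factors, library totals, DESeq2 1.42.0, no filter, limma 3.58.1 on log2(FPKM + 1) and an adjusted p under 0.1.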

Additional observations from a re-analysis of the deposited data

How the results depend on the processing

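Irf4 was the 1 IRF gene called higher under every alternative, of which an adjusted p under 0.1 could not undo a call. The IRF genes called lower numbered 4, and 1 to 4 when a library was left out; 1, Irf9, was left without Acly-E14 siRNA library 2 or without control library 1. They numbered 3 with unscaled library totals, with no filter on low counts and in the limma fit of log2(FPKM + 1), and 5 with DESeq2, with a replicate block and at an adjusted p under 0.1. Irf7, never called, changed sign without Acly-E14 siRNA library 2 (log2 0.050, and -0.093 without library 1), with unscaled library totals (0.070) and in the limma fit (0.068); the cause was not tested. Over all genes, 2264 were higher and 2090 lower. Leaving out a library gave 1045 to 1815 higher and 982 to 1400 lower, with fewer samples in the fit. In the limma fit, 2669 were higher and 1389 lower. Higher genes made up 65.8% of calls there, as with unscaled library totals (2776 and 1446), against 52.0% with TMM. Neither the FPKM of the limma fit nor the unscaled totals carry TMM factors. These factors were 1.026 and 1.039 in Acly-E14 siRNA libraries and 0.958 and 0.9796 in controls. The cause of the shift was not tested. Replicate numbers are shared between groups but nothing says that they pair samples (correlation of deviations 0.13 across 13108 genes); the replicate block gave 2514 higher and 2382 lower, called Irf5 (log2 -0.19, adjusted p = 0.030), and moved the partners of IRF proteins to 5 higher and 5 lower, the B cell genes to 2 lower and the neutrophil genes to 1 higher. Counts below the filter limit what can be said of the interferon genes.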

Other observations

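Neutrophil genes, of which 3 of 10 were tested, had 2 higher and 1 lower, with sums of 140 and 139 CPM in Acly-E14 siRNA libraries and 93.0 and 101 CPM in controls, most of it Csf3r; Ngp was at 0. Without Acly-E14 siRNA library 2, without either control library or without a filter on low counts, 1 was higher.

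The gene lengths behind the deposited FPKM were worked out from the counts. Over 7586 genes with more than 200 counts in control library 1, the implied length equalled the sum of all distinct annotated exons of GENCODE M21, with overlapping exons each counted in full, for 4997 genes (65.9%, relative tolerance 0.001), and the merged exon length for 463 (6.10%). Irf1 and Irf5 were among the matches, at 5767 and 3550 bases. For Irf7 the implied length was 6421 bases, more than the 3776 bases that the gene spans on the chromosome, and for Irf9 it was 8582 bases against a span of 6460. For Irf2 and Irf3 it was 2484 and 2374 bases, less than their merged exons (7396 and 3442). Differences between groups in the counts or CPM of a gene do not depend on the length. Those of log2(FPKM + 1) in the limma fit do, through the added 1.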
